A study of Arabidopsis thaliana with 16 samples.

Results

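Phytochromes and cryptochromes are the receptors that plants use for red, far-red and blue light, and COP1 with its partner SPA1 is the repressor that these receptors hold in check. This account describes 9 genes of that group in whole germinating wild-type seeds of Arabidopsis thaliana: the phytochrome genes PHYA (AT1G09570), PHYB (AT2G18790), PHYC (AT5G35840), PHYD (AT4G16250) and PHYE (AT4G18130), the cryptochrome genes CRY1 (AT4G08920) and CRY2 (AT1G04400), COP1 (AT2G32950) and SPA1 (AT2G46340). They were taken by gene identifier, with earlier results of these data known, and are 9 of 27655 genes in the count table. All 9 passed the filter on low counts, as did 17083 genes in all. Between 228 and 8353 counts were assigned to each of the 9 in every library.

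The seeds, ecotype Col-0, were imbibed in the cold and kept in constant light on diluted Murashige and Skoog medium. From 24 hours after imbibition they spent 6 hours in liquid medium with 60 mM glucose, with 5 µM abscisic acid (ABA, the hormone that holds back germination), or with both, and the labelled age at harvest is 30 hours. The control group carries no added compound in its labels, which do not say whether it was moved to liquid medium. If it was not, any effect of the move is part of every contrast with control. No osmotic control for glucose is named, so any osmotic effect of the sugar is part of every glucose contrast. Each of the 4 groups has 4 biological replicates by its labels, 16 libraries in all. There was no dark-grown group, so all values belong to seeds in light. Because RNA came from whole seeds, more transcript per cell cannot be told apart from more cells of a type.

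Phytochromes switch between an inactive and an active form when they absorb red or far-red light, enter the nucleus and remove transcription factors that oppose germination and greening. PHYA is the light-labile phytochrome that accumulates in imbibed seeds and in darkness, and PHYB to PHYE encode light-stable forms, with PHYB and PHYD the closest relatives. Cryptochromes sense blue light. COP1 is a ubiquitin ligase that works with SPA proteins to have light-promoting transcription factors such as HY5 degraded, and activated receptors switch this complex off.

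Library totals ran from 9360552 to 17794702 counts. The germinating-seed markers fixed for the check were present in all groups, with ICL (isocitrate lyase) at the head, and none of the 5 stood at 0. Their summed level ran from 32305 to 34253 CPM (normalised read counts on TMM-scaled library sizes) in control and from 32697 to 36248 in ABA libraries. One library stood apart: on principal component 3 of log2 CPM, which took 7.08% of the variance, ABA replicate 3 scored 33.3 and the other ABA libraries between -10.9 and -7.1. On component 2, which took 10.1%, it scored 27.2 and the other ABA libraries between -3.4 and 5.2. Control libraries scored 8.2 to 25.3 on component 2 and glucose libraries -19.3 to -8.6. ABA replicate 3 was also the smallest library. Calls of the 9 genes that were gained or lost without it are given both ways.

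PHYA was the most abundant of the 9 transcripts in all 4 groups, and PHYD the least. On the deposited per-length signal, which allows genes of unequal length to be compared, PHYA stood at 151 ± 9.97 in control seeds (mean ± SD, n = 4), above 93.9% of the tested genes. CRY2 came next at 45.9 ± 1.23. CRY1 (21.3 ± 1.47), PHYB (21.2 ± 1.75), SPA1 (21.2 ± 1.86) and COP1 (18.9 ± 1.59) formed a middle group in which neighbours overlapped between libraries. PHYC at 11.5 ± 1.42 and PHYE at 9.55 ± 1.14 also overlapped, and PHYD at 6.87 ± 0.394 lay below all of them, above 30.6% of the tested genes. PHYA thus made up 75.0% to 75.8% of the per-length signal of the 5 phytochromes in the control libraries. PHYB followed with a mean of 10.6%, PHYC with 5.3% to 6.32%, PHYE with 4.55% to 5.05% and PHYD with 3.27% to 3.74%.

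The order was largely kept under treatment. PHYA and CRY2 stayed first and second in all groups with no overlap with the gene below. CRY1 had the same level as PHYB and SPA1 in control seeds and a lower mean than PHYB, SPA1 and COP1 in the other 3 groups. With ABA the range of PHYD, 9.32 to 10.6, met that of PHYE, 10.6 to 12.6, at its upper end, and with both compounds PHYD (9.09 to 9.62) overlapped PHYC (9.39 to 11.7), whereas in control and glucose libraries PHYD lay below PHYE throughout.

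**Figure D1:**
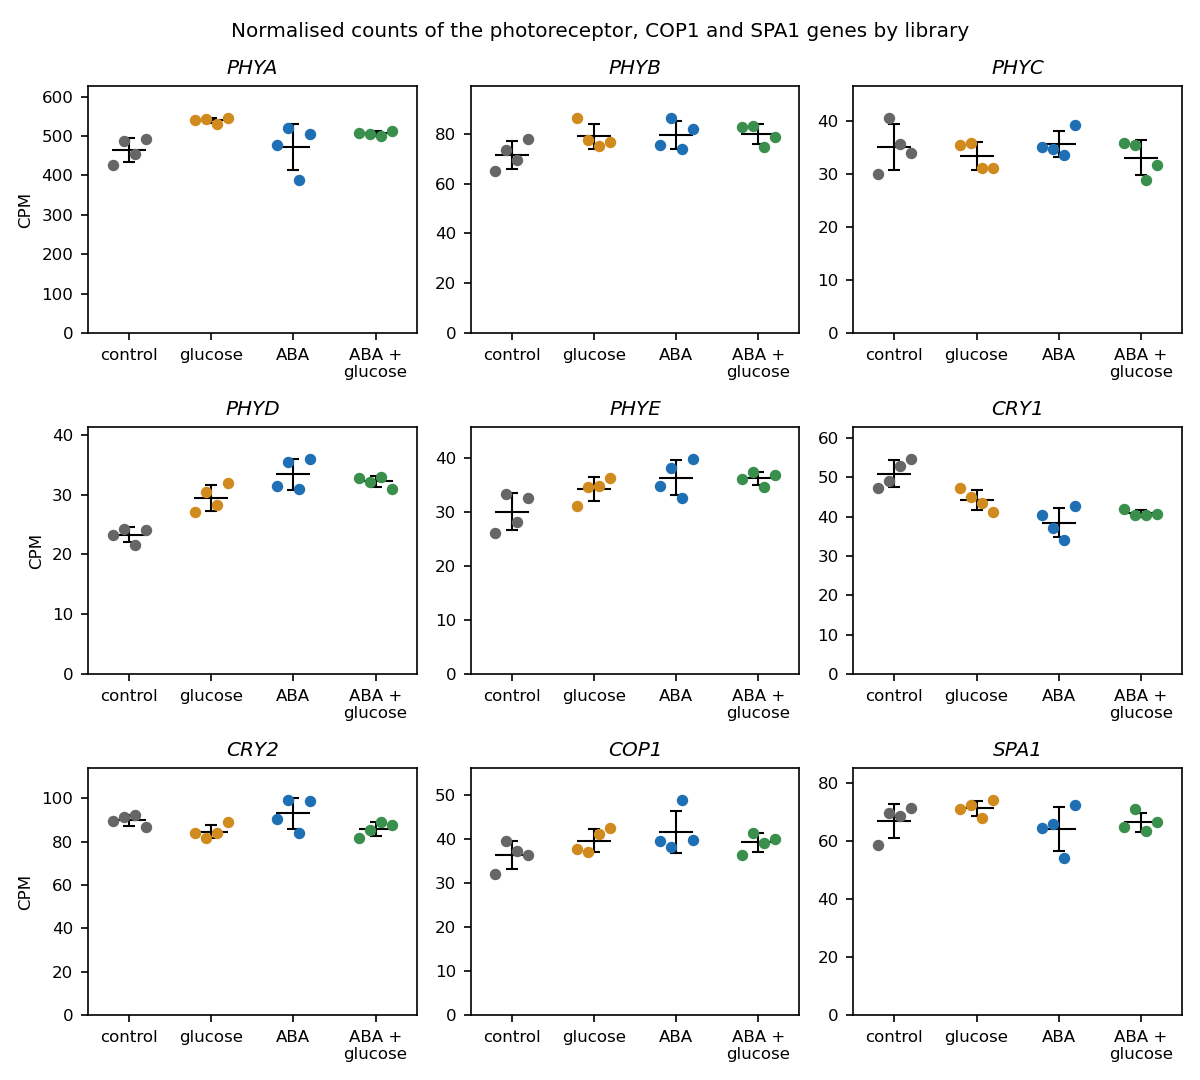
Normalised counts (CPM, y axis from 0) of the 9 genes in each of the 16 libraries, by treatment group on the x axis. Points are libraries, the wide bar is the group mean and the whiskers are 1 SD (n = 4). PHYD lies between 21.6 and 24.3 CPM in control libraries and between 30.9 and 35.9 in ABA libraries, and CRY1 lies lower in ABA than in control libraries.

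The ABA and control libraries ask which of the 9 transcripts responded to the hormone alone. PHYD and PHYE rose and CRY1 fell, each by less than 1.5-fold, and the other 6 genes were not called in edgeR's quasi-likelihood test at an adjusted p under 0.05. Over all tested genes 34.1% were called in this comparison, 16.1% higher and 18.0% lower, so 3 of 9 is a share near the background. Of all genes called 47.2% were higher, and 34.9% with upper-quartile factors. The median log2 fold change of the 9 genes was 0.05, against 0 for all tested genes.

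PHYD, a light-stable phytochrome that acts beside PHYB, stood at 23.2, 24.3, 21.6 and 24.1 CPM in the control libraries. It stood at 31.5, 35.4, 30.9 and 35.9 with ABA. Every ABA library was above every control library. The log2 fold change was 0.52 with a standard error of 0.0737 (edgeR, adjusted p = 6.63e-06). It was called under all 25 alternatives tried, with adjusted p from 2.52e-09 to 0.000329, and without ABA replicate 3 the value was 0.55.

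PHYE, another light-stable phytochrome with a role in seed germination, held 26.2, 33.4, 28.1 and 32.6 CPM in control libraries. With ABA it held 34.9, 38.2, 32.6 and 39.8. The groups overlapped, since ABA replicate 3 lay below the highest control library. The log2 fold change was 0.28 ± 0.0822 (SE; edgeR, adjusted p = 0.0107), and 0.33 without ABA replicate 3. The RefSeq model of PHYE shares 60 bases with that of its neighbour SSP4b, and as the use of strand in counting is not given in the sources used here, reads from that stretch are uncertain.

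CRY1, the cryptochrome that mediates much of the blue-light control of seedling growth, held 47.2, 49.0, 52.9 and 54.6 CPM in control libraries. With ABA it held 40.3, 37.0, 34.1 and 42.6. All ABA libraries were below all control libraries. The log2 fold change was -0.40 ± 0.0716 (SE; edgeR, adjusted p = 0.000144), and -0.34 without ABA replicate 3.

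The other 6 genes differed between ABA and control by no more than their test could separate. PHYA, at 426, 487, 455 and 492 CPM in control libraries, was at 477, 519, 388 and 506 with ABA. The low value belonged to ABA replicate 3, and the groups overlapped. Its log2 fold change was 0.02 ± 0.0712 (adjusted p = 0.832, edgeR), and 0.11 without that library, still not called. PHYB went from 71.5 ± 5.48 to 79.4 ± 5.72 CPM (mean ± SD, n = 4), and its log2 fold change, 0.15 ± 0.0693 (SE), missed the threshold (edgeR, adjusted p = 0.0915). It was called in 2 of 25 alternatives, without ABA replicate 3 (0.19, adjusted p = 0.034) and without control replicate 4 (0.21, with the same adjusted p), within a range of adjusted p from 0.034 to 0.259 in edgeR, limma and DESeq2.

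PHYC stood at 35.1 ± 4.35 in control and 35.7 ± 2.58 CPM in ABA libraries, and CRY2 at 89.9 ± 2.46 and 93.1 ± 7.18 (mean ± SD, n = 4). Their log2 fold changes were 0.03 ± 0.0908 and 0.05 ± 0.0596 (SE). Neither was called under any of the 25 alternatives.

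COP1, the ubiquitin ligase, held 32.1, 39.7, 37.3 and 36.4 CPM in control libraries and 39.7, 38.3, 48.9 and 39.8 with ABA. The high value was again ABA replicate 3, and the groups overlapped. The log2 fold change of COP1 was 0.19 ± 0.0823 (SE; edgeR, adjusted p = 0.0788). It was 0.11 without ABA replicate 3, and it was called in 1 of 25 alternatives, without control replicate 2 (0.24). SPA1, the partner that raises COP1 activity and was first found through its effect on PHYA signalling, stood at 67.1 ± 5.82 and 64.2 ± 7.6 CPM (mean ± SD, n = 4), a log2 fold change of -0.06 ± 0.0778 (SE) that was not called. In ABA replicate 3 SPA1 was at 54.0 CPM, its lowest level of all 16 libraries, so the library that was highest for COP1 was lowest for SPA1 and for PHYA.

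The glucose and control libraries ask the same of the sugar. PHYD rose, and it was the only 1 of the 9 genes called in edgeR's quasi-likelihood test. The background was 11.3% of tested genes called, 3.85% higher and 7.49% lower. PHYD held 27.0, 30.4, 28.2 and 31.9 CPM with glucose, each above the highest control library. Its log2 fold change was 0.33 ± 0.0748 (SE; edgeR, adjusted p = 0.0052).

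PHYA held 541, 542, 530 and 545 CPM with glucose. Each glucose library was above each control library, yet with a log2 fold change of 0.21 ± 0.0712 (SE) the adjusted p was 0.054 in edgeR's test. This call depended on the setting: PHYA passed in 11 of 25 alternatives, with adjusted p from 0.0023 to 0.146 in edgeR, limma and DESeq2. It passed with RLE size factors, the replicate block, DESeq2 and only the groups compared in the fit. It also passed without control replicate 2 or 4, without ABA plus glucose replicate 2, and without any of ABA replicates 1, 2, 3 and 4. The adjusted p was lowest without ABA replicate 3, although that library is in neither group.

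CRY1 held 47.3, 45.0, 43.4 and 41.3 CPM with glucose, which overlaps the control range by 1 library. Its log2 fold change was -0.20 ± 0.0713 (SE; edgeR, adjusted p = 0.0732), and it was called in 1 of 25 alternatives, without ABA replicate 3. The remaining 6 genes had log2 fold changes from -0.09 for CRY2 to 0.19 for PHYE with glucose, and none of them was called in any alternative.

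With both compounds, the genes called against control were those called with ABA alone, PHYD and PHYE higher and CRY1 lower. The 2 comparisons share the control libraries. The background was 25.3% of tested genes called, 11.2% higher and 14.1% lower. PHYD held 32.7, 32.1, 33.0 and 31.0 CPM, a log2 fold change of 0.47 ± 0.0735 (SE; edgeR, adjusted p = 3.86e-05). PHYE held 36.1, 37.4, 34.7 and 36.9 CPM, all above the control libraries, with a log2 fold change of 0.28 ± 0.0818 (SE; edgeR, adjusted p = 0.0157). The call of PHYE was lost in 2 alternatives, without control replicate 1 (0.22) and without control replicate 3 (0.24).

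CRY1 held 42.0, 40.4, 40.3 and 40.6 CPM with both compounds, all below the control libraries, and its log2 fold change was -0.32 ± 0.0711 (SE; edgeR, adjusted p = 0.00177). PHYA held 507, 506, 499 and 513 CPM, above all control and below all glucose libraries, but neither difference was called, at 0.12 and -0.09 on the log2 scale. PHYB, at 79.7 ± 4 CPM (mean ± SD, n = 4), had a log2 fold change of 0.16 against control that was called in 1 of 25 alternatives, without control replicate 4 (0.20). Without ABA replicate 3 the difference of PHYA from control was called (0.12, adjusted p = 0.0461 in edgeR, in a range over the alternatives up to 0.43).

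**Figure D2:**
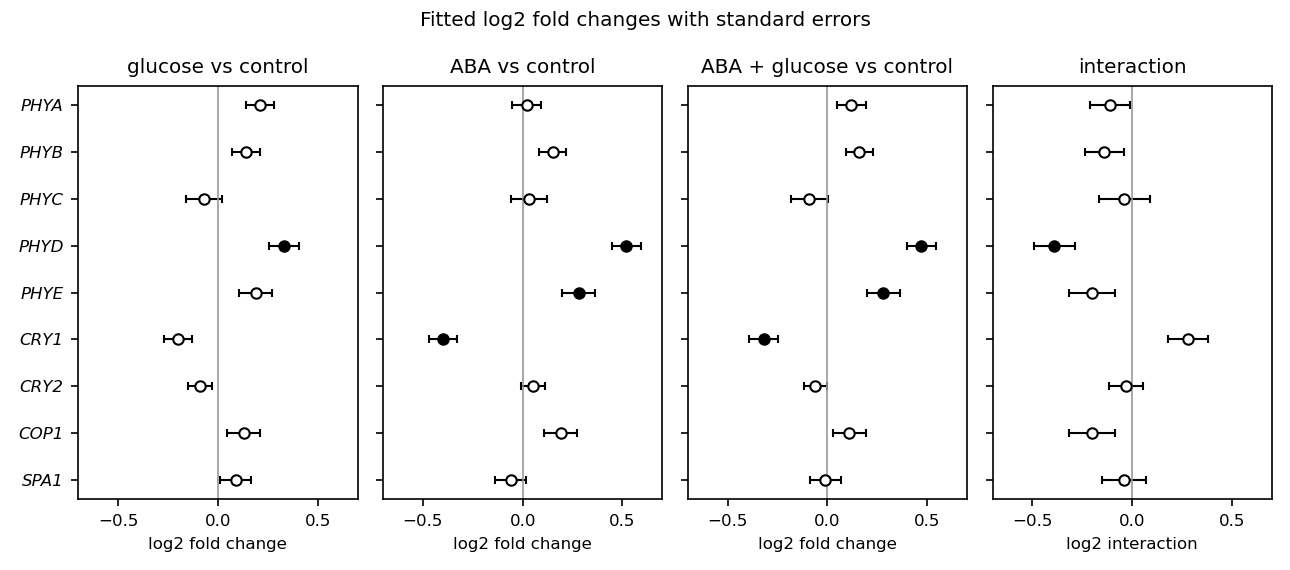
Fitted log2 fold changes of the 9 genes (x axis) in glucose, ABA and ABA plus glucose against control, and the interaction of ABA and glucose. Points are edgeR estimates, whiskers are 1 standard error, and filled points have an adjusted p under 0.05. PHYD is called in all 4 panels, with values of 0.33, 0.52, 0.47 and -0.39.

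None of the 9 genes was called between ABA plus glucose and ABA, where 4.4% of tested genes were called, or between ABA plus glucose and glucose, where 11.8% were. In the first comparison their log2 fold changes ran from -0.12 for CRY2 to 0.1 for PHYA, and in the second from -0.12 for CRY1 to 0.13 for PHYD. Without ABA replicate 3 the value of PHYA in the first comparison was 0.017. None had an unadjusted p under 0.05 in edgeR in either comparison, DESeq2 called 0 in both, and no other alternative called any. By direction, 1.16% of tested genes were called higher and 3.24% lower in the first comparison, and 5.82% and 5.95% in the second.

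The interaction contrast asks whether ABA and glucose acted independently on the log2 scale, by subtracting the effect of the sugar alone from its effect in the presence of the hormone. PHYD was called, with an interaction of -0.39 ± 0.103 (SE; edgeR, adjusted p = 0.0302), against a background of 5.29% of tested genes called, 3.23% higher and 2.07% lower. PHYD had means of 23.3 ± 1.22 in control, 29.4 ± 2.21 in glucose, 33.4 ± 2.61 in ABA and 32.2 ± 0.903 CPM with both (SD, n = 4). It stood above control with each compound, and the combination stood no higher than ABA alone. The interaction includes the control libraries, so any effect of a move to liquid medium that the control did not share is part of it. That effect was not tested. The interaction call of PHYD held in 17 of 24 alternatives, with adjusted p from 0.00971 to 0.0744 in edgeR, limma and DESeq2. It was lost in limma on the deposited signal, at -0.38, and without each of control replicate 3, glucose replicates 2 and 4, ABA replicates 2 and 4 and ABA plus glucose replicate 4. CRY1 had an interaction of 0.28 ± 0.101 (SE; adjusted p = 0.12, edgeR), which was not called. The other 7 genes lay between -0.20 and -0.03 and were not called. Without ABA replicate 3 the interaction of PHYA went from -0.11 to -0.20, that of COP1 from -0.20 to -0.12, that of CRY2 from -0.03 to -0.071 and that of SPA1 from -0.04 to -0.12, all still not called.

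Ratios between genes of the same library do not depend on how libraries are scaled. The per-length signal of PHYD relative to PHYB lay between 0.306 and 0.355 in control libraries. It was 0.311 to 0.411 with glucose, 0.407 to 0.435 with ABA and 0.384 to 0.438 with both. All 8 libraries with ABA were thus above all control libraries, and the glucose libraries overlapped them. The ratio of CRY1 to CRY2 lay between 0.428 and 0.521 in control libraries, at 0.385 to 0.464 with glucose, 0.308 to 0.364 with ABA and 0.369 to 0.422 with both, so that the libraries with ABA were below the control libraries. The share of PHYD in the phytochrome signal was 4.44% to 5.11% with ABA. That of PHYA was 70.6% to 74.0% with ABA, below the 75.0% to 75.8% of control libraries, and 76.0% to 76.8% with glucose, above them. The 70.6% belonged to ABA replicate 3, and the next lowest ABA library was at 72.9%. With both compounds the share of PHYA was 74.0% to 75.6%, which overlaps the control libraries. COP1 relative to SPA1 was 0.832 to 0.937 in control libraries and 0.904 to 1.49 with ABA, with the top value in ABA replicate 3.

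**Figure D3:**
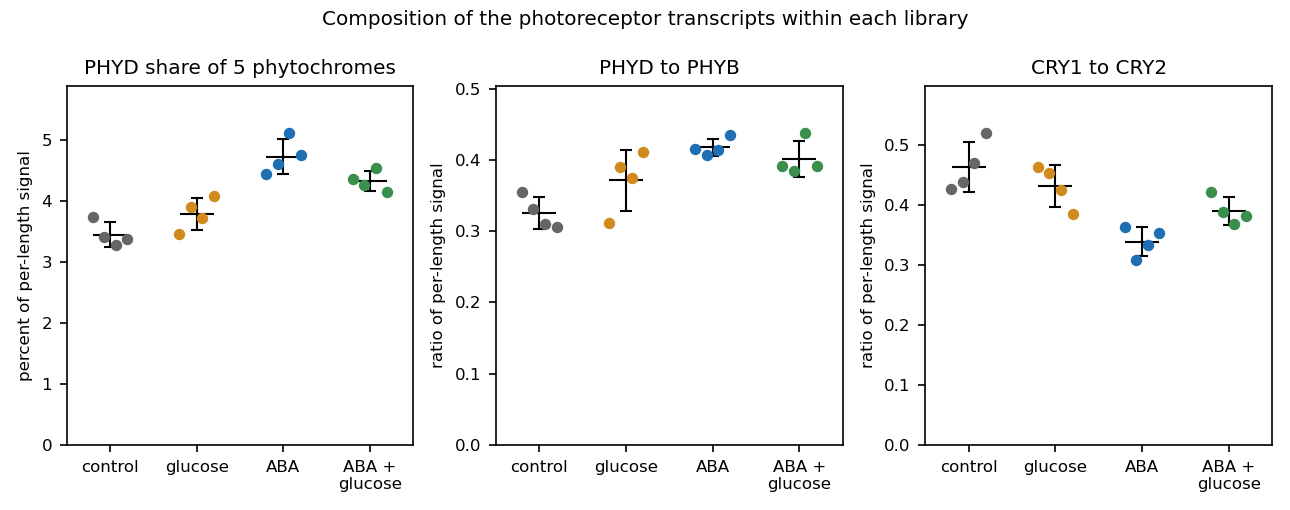
Share of PHYD in the per-length signal of the 5 phytochromes (percent), and ratios of PHYD to PHYB and of CRY1 to CRY2, in each library by treatment group. Points are libraries, wide bars are means and whiskers are 1 SD (n = 4). The 4 ABA libraries lie above the control libraries for PHYD and below them for CRY1 to CRY2, at 0.308 to 0.364 against 0.428 to 0.521.

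Other cell types of the seed could contribute to these values. Of 5 endosperm markers, MAN7 (an endo-beta-mannanase) rose with ABA, from 39.8 ± 2.85 to 116 ± 9.88 CPM (mean ± SD, n = 4), and EPR1, EXPA2, MAN5 and MAN2 were not called. Their summed level lay between 1089 and 1292 CPM in control libraries, at 1205 to 1331 with glucose, 1145 to 1560 with ABA and 1226 to 1396 with both, and none was at 0. The 4 markers that were not called had log2 fold changes with ABA of 0.67 for EPR1, 0.03 for MAN5, -0.10 for EXPA2 and -0.27 for MAN2. The value of EPR1 rests on its highest ABA library, at 653 CPM. Its median was 218 CPM in ABA and 212 in control libraries. MAN7 had the sign of PHYD in glucose, ABA and both compounds against control and in the interaction, and so did EPR1 by its means. By medians EPR1 was lower with both compounds, at 197 CPM, than in control libraries, at 212. EPR1 held 204 ± 46.8, 240 ± 35.6, 325 ± 219 and 217 ± 61.9 CPM in control, glucose, ABA and both (mean ± SD, n = 4). In the same groups EXPA2 had means of 936, 947, 873 and 958 CPM and MAN5 of 4.98, 4.9, 5.1 and 5.6. MAN2 had log2 values of 0.06, -0.27, -0.13 and 0.07 in the contrasts given for MAN7. Among the germinating-seed markers, the storage genes OLEO1 and CRA1 rose by 4.08 and 4.06 on the log2 scale with ABA, and ICL, MLS and PCK1 were not called. The part of such differences in the results on PHYD, PHYE and CRY1 was not tested.

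By the rule for likeness, the 2 genes closest in pattern were taken for each of the 3 genes called with ABA, from 11215 other genes with a mean of at least 10 CPM. Likeness is the Pearson correlation of log2 CPM over the 16 libraries, which share their treatment groups, and it is a description only. For PHYD these were AAO1 (AT5G20960, annotated as indole-3-acetaldehyde oxidase) at 0.965 and ATRNL (AT1G07910, an RNA ligase) at 0.955. AAO1 went through 116 ± 7.79, 153 ± 9.47, 196 ± 11.2 and 182 ± 7.79 CPM in control, glucose, ABA and ABA plus glucose libraries (mean ± SD, n = 4). For PHYE they were RAN1 (AT5G44790, a copper-transporting ATPase) at 0.949 and AT1G76460 (an RNA-binding protein) at 0.944. For CRY1 they were GLN1-1 (AT5G37600, cytosolic glutamine synthetase) at 0.944 and PEX11E (AT3G61070) at 0.943, with GLN1-1 at 70.4 ± 5.04, 59.7 ± 4.72, 47.6 ± 2.4 and 51.9 ± 1.25 CPM in the same groups.

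Lists of genes that act with the 9 are read against the shares of all tested genes called, which were 34.1% with ABA, 11.3% with glucose and 25.3% with both compounds. Of 9 genes for chromophore synthesis and nuclear import 7 were tested, and HO3 and HO4 had no count in any library. None of the 7 was called with ABA, among them HY1 and HY2, whose enzymes make the phytochrome chromophore from heme. Their median log2 fold change was 0.02. With glucose FHY1, which carries PHYA into the nucleus, fell by 0.48 on the log2 scale (edgeR, adjusted p = 0.0335). The call held in 19 of 25 alternatives and was lost without each glucose library and without control replicates 1 and 2, with the smallest value, -0.33, without control replicate 1. FHY1 was the only one of this list called in any comparison and was named after its value had been seen.

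Of 12 listed phytochrome partners 7 were tested. PKS1, PKS2, PKS3 and PKS4, which encode phytochrome kinase substrates, and AT4G34550 did not pass the filter and had at most 3 counts in a library. With ABA PAPP5, a phytochrome-associated phosphatase, rose by 0.15 on the log2 scale. AT2G16365 fell by 0.21 and FYPP1, another phosphatase, fell by 0.19 (edgeR, adjusted p = 0.0372, 0.0198 and 0.0171). All 3 calls were lost when only the ABA and control libraries were in the fit, and they held in 18, 19 and 21 of 25 alternatives. With 3 of 7 called, against 34.1% of all tested genes, the list median was 0.06.

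Of the 7 cryptochrome partners, all tested, 2 rose and 2 fell with ABA, where 16.1% of all tested genes were called higher and 18.0% lower. CIB1, a bHLH factor that binds CRY2 in blue light, fell from 29.0 ± 1.8 to 16.4 ± 5.92 CPM (mean ± SD, n = 4), a log2 fold change of -0.86 (edgeR, adjusted p = 0.000101). Without ABA replicate 3, the ABA library with the most CIB1 at 25.1 CPM, the value was -1.11. Its RefSeq model overlaps that of AT4G34540 over 1784 bases and its counts had decimals in 16 libraries, so they are uncertain. BIC1, an inhibitor of cryptochrome activation, fell by 0.28 (edgeR, adjusted p = 0.045). This call held in 6 of 25 alternatives and was lost in 14 of the 16 fits with a library left out. AT5G18190 rose by 0.34, and AT2G25760, named after its values had been seen, rose by 0.19. With glucose BIC1 also fell, by 0.34, and AT2G25760 rose by 0.25 (edgeR, adjusted p = 0.04 and 0.011). These calls held in 15 and 24 of 25 alternatives, and the highest adjusted p of BIC1 over them was 0.117.

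The repressor side, 18 genes for other SPA proteins, DET1, COP10, DDB1, CUL4 and the COP9 signalosome, was tested in full. With ABA 5 were called higher and 2 lower, 7 of 18 and so near the 34.1% of all tested genes called, and the median log2 fold change was 0.01. CSN5B, a signalosome subunit gene, rose most, from 4.03 ± 0.603 to 7.62 ± 1.59 CPM (mean ± SD, n = 4), a log2 fold change of 0.92 (edgeR, adjusted p = 0.000144). DET1 rose by 0.37 and CUL4, the cullin scaffold of the ligases that DET1 and COP1 join, by 0.29 (edgeR, adjusted p = 0.00854 and 0.000839). DDB1A (0.23) was also higher, and COP10 (-0.21) and CSN1 (-0.16) were lower; these 3 were named after their values had been seen. DET1 was at 76.5 CPM in ABA replicate 3, and its log2 fold change was 0.26 without that library.

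The SPA genes differed in whether they were called. SPA2 rose with ABA, from 53.4 ± 3.08 to 64.8 ± 4 CPM (mean ± SD, n = 4), by 0.28 on the log2 scale (edgeR, adjusted p = 0.00272). SPA3 had a log2 fold change of -0.18 and SPA4 of 0.02, and neither was called. SPA3 was called lower in 2 of 25 alternatives, with upper-quartile factors (-0.23) and without control replicate 1 (-0.24). Its RefSeq model overlaps that of AT3G15350 over 135 bases and its counts had decimals in 12 libraries, so they are uncertain. Whether the SPA genes differ from each other was not tested. CSN5B was the only gene of the 18 called with both compounds against control, at 0.92, and CUL4 the only one called with glucose, at 0.19 (edgeR, adjusted p = 0.0483), a call held in 10 of 25 alternatives.

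Of 10 listed transcription factors that COP1 marks for degradation, 8 were tested, LAF1 had no count and BBX23 at most 1. With glucose 4 were called lower and none higher, where 7.49% of all tested genes were called lower and 3.85% higher, with a median log2 fold change of -0.39 against -0.01 for all tested genes: BBX20 (-0.56), BBX24 (-0.43), BBX25 (-0.43) and BBX21 (-0.35), B-box proteins of light signalling. BBX20, BBX21 and BBX24 were named after their values had been seen. The call of BBX24 held in 25 of 25 alternatives, that of BBX20 in 24, of BBX21 in 23 and of BBX25 in 19, where its adjusted p reached 0.139. The RefSeq model of BBX25 shares 48 bases with that of AT2G31390, which had a mean of 178 CPM, so reads from that stretch are uncertain. With ABA 3 were called lower, 1 higher and 4 not at all, where 18.0% and 16.1% of all tested genes were called lower and higher. HFR1, a bHLH factor that promotes light responses, fell from 2.94 ± 0.707 to 1.29 ± 0.611 CPM (mean ± SD, n = 4), a log2 fold change of -1.15 (edgeR, adjusted p = 0.00268). The fall of HFR1 rests on few reads. Its lowest ABA library was at 0.553 CPM, and 3 counts equal 0.169 to 0.32 CPM in ABA libraries. BBX25 fell by 0.48 and BBX24 by 0.30, and BBX22 rose by 0.41 (edgeR, adjusted p = 0.00638, 0.000602 and 0.00085).

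With both compounds 6 of these 8 factors were called lower than control and 1, BBX22, higher, where 14.1% and 11.2% of all tested genes were, and the median log2 fold change was -0.43. Among them HYH, the close relative of HY5, had a log2 fold change of -0.41 (edgeR, adjusted p = 0.0145), lost without control replicate 1 (-0.31) and without ABA plus glucose replicate 4 (-0.38), against -0.31 with ABA alone, which missed the threshold (edgeR, adjusted p = 0.0502) and was called without ABA replicate 3 (-0.44). HY5 itself, the bZIP factor at the centre of light-regulated transcription, was at 59.3 ± 8.93 in control and 60.8 ± 14.1 CPM in ABA libraries (mean ± SD, n = 4). It was not called in any comparison, and its log2 fold change with ABA was 0.02, or -0.14 without ABA replicate 3. Against ABA alone, BBX20 fell with both compounds, by 0.51 (edgeR, adjusted p = 0.0227; held in 21 of 25 alternatives), and against glucose alone BBX22 rose by 0.51 (edgeR, adjusted p = 0.000211).

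**Figure D4:**
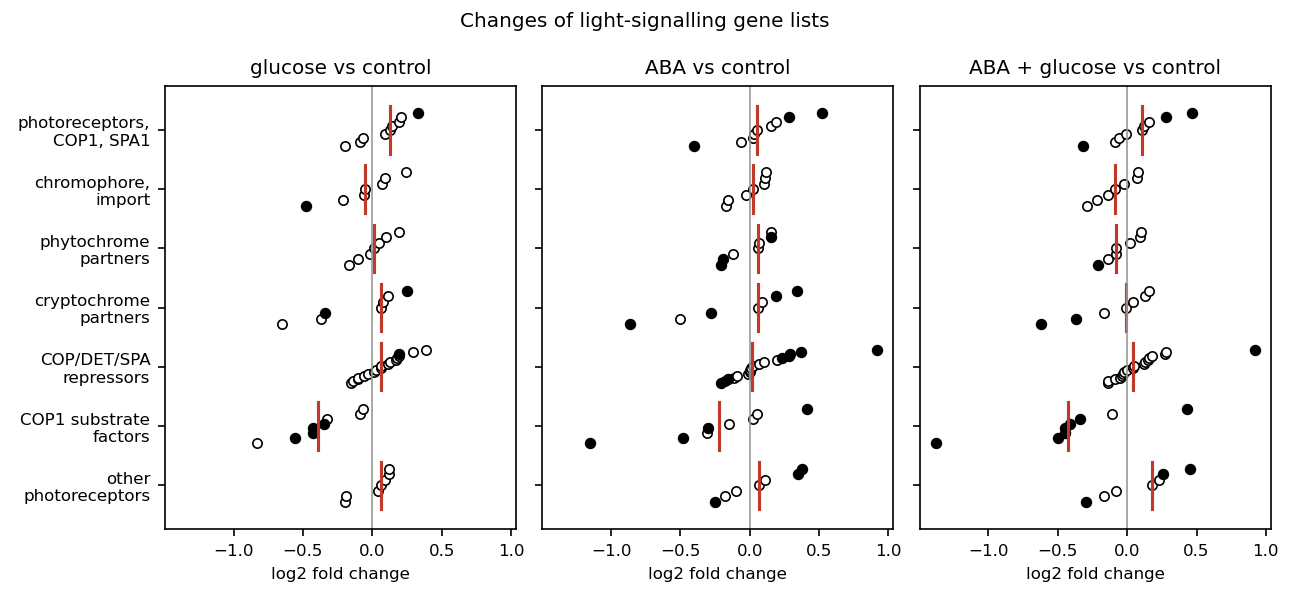
Fitted log2 fold changes (x axis) of the 9 genes and of 6 lists of light-signalling genes in glucose, ABA and ABA plus glucose against control. Each point is a gene, filled where the adjusted p is under 0.05, and red bars are list medians. The COP1 substrate factors have medians of -0.39, -0.23 and -0.43, and the median of the 9 genes is 0.13, 0.05 and 0.11.

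Of 7 other photoreceptor genes, 2 rose and 1 fell with ABA, where 34.1% of all tested genes were called. UVR8, the UV-B receptor that acts through COP1, rose from 95.4 ± 4.73 to 124 ± 5.33 CPM (mean ± SD, n = 4), by 0.38 on the log2 scale, with every ABA library above every control library (edgeR, adjusted p = 4.05e-05). FKF1, a blue-light receptor of the F-box type, rose by 0.35, and PHOT1, the phototropin of phototropic growth, fell by 0.25 (edgeR, adjusted p = 0.0251 and 0.0319). The call of UVR8 held in 25 of 25 alternatives, that of FKF1 in 21 and that of PHOT1 in 18, where its adjusted p reached 0.153. PHOT2, ZTL, LKP2 and CRY3 were not called. The same 3 genes were called in the same directions with both compounds, again against the shared control libraries, at 0.26, 0.45 and -0.30, and none of the 7 was called with glucose.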

How the data were processed

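The authors deposited a table of estimated counts per gene, and 4057 of its genes have values with decimals. They also deposited for each library a per-length signal headed TPM, whose sums ran from 945626 to 1037286. The submitters' processing notes name Trimmomatic 0.38, kallisto 0.44.0 and sleuth, with no role or order. The genome build, annotation and use of strand are not given in the sources used here. The table's 16 remaining columns match no sample here and were left aside.

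Counts were rounded to whole numbers, where the planned test had named counts. Genes were kept by filterByExpr (minimum count 10) and tested in edgeR 4.0.16 (R 4.3.3) by its quasi-likelihood F-test, after TMM scaling and in a single fit of the 4 group means. The Benjamini-Hochberg adjustment ran over 17083 genes, and a gene is called at an adjusted p under 0.05. Standard errors are approximate, the absolute log2 fold change over the square root of F. Alternatives used DESeq2 1.42.0, limma 3.58.1 (log2 of the signal plus 0.5), other scalings and filters, a robust fit, a replicate block and each library left out. The test was first run on simulated counts with known changes.

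The 9 genes and the gene lists were chosen with earlier results of these data known. From each list the 3 called genes with the largest change with ABA are named, with HY5, HYH and the SPA genes in any case; any other gene named was named after its values had been seen. All 82 listed identifiers matched the RefSeq table of TAIR10.1, which gave gene names and overlaps; 6 have no symbol and are printed by identifier. Nothing beyond the replicate labels says how samples were grown apart, so p-values measure the spread between these samples. Replicates differed by more than sampling noise (lowest chi-square per gene 1.8).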

Additional observations from a re-analysis of the deposited data

Results flagged for a closer look

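PHYD had an interaction of -0.39 on the log2 scale, a call that held in 17 of 24 alternatives. Its log2 fold change was 0.33 for glucose against control and -0.05, not called, for both compounds against ABA. CUL4 (-0.34), CRA1 (-0.92) and MAN7 (-0.72) were also called in the interaction (edgeR, adjusted p = 0.0279, 1.89e-05 and 0.00026).

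In 11 of 128 groups of 4 libraries examined, the highest or the lowest library lay far from the others by Dixon's criterion, which chance flags in about 1 group of 20. In ABA replicate 3, COP1 was high at 48.9 CPM, DET1 at 76.5 and AT5G18190 at 72.9. In control replicate 1, SPA3 was low at 46.1 and CUL4 at 147. BBX22 was low at 14.8 in control replicate 4, and HY5 was high at 65.0 in glucose replicate 3. Among the ABA plus glucose libraries, CRY1 was high at 42.0 in replicate 1, BBX25 was high at 8.44 in replicate 4, and CSN5B was low at 6.4 and PHOT1 at 39.6 in replicate 3.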

How the results depend on the processing

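The calls of PHYD and CRY1 with ABA and with both compounds, of PHYD with glucose and of PHYE with ABA held under all 25 alternatives. With glucose 2 of the 9 genes were called instead of 1 with RLE size factors, the replicate block, only the groups compared or DESeq2, and 1 to 3 with a library left out, 3 of them without ABA replicate 3. For the interaction 0 were called in limma on the deposited signal, and 0 to 1 with a library left out. Over all genes the calls ranged from 1159 (without glucose replicate 3) to 2984 (without ABA replicate 3) with glucose, and from 561 to 1433 for the interaction. With only the groups compared, 0 phytochrome partners and 2 cryptochrome partners were called with ABA; with a library left out, 0 to 3 phytochrome partners and 1 to 4 other photoreceptors were. The cause of these changes was not tested.

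Directions turned only for values that were not called. With upper-quartile factors the ABA values were -0.029 for PHYA, -0.025 for PHYC, -0.0023 for CRY2, -0.033 for SPA4 and -0.031 for HY5. PHYE was 0.017 for both compounds against ABA, PHYB -0.006 against glucose and the CRY2 interaction 0.0043. PHYB for both compounds against ABA was -0.0023 with RLE, -0.0019 with at least 10 counts in every library, -0.00067 with only the groups compared, -0.0024 in DESeq2 and -0.01 in limma.

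With a library left out, the ABA values ran from -0.024 to 0.11 for PHYA, -0.035 to 0.11 for PHYC, -0.11 to 0.014 for SPA1, -0.011 to 0.078 for SPA4 and -0.14 to 0.14 for HY5. PHYC with glucose ran from -0.14 to 0.016, and SPA1 with both compounds from -0.069 to 0.021. For both compounds against ABA the ranges were -0.031 to 0.046 for PHYB, -0.049 to 0.034 for PHYE, -0.11 to 0.0041 for COP1 and -0.024 to 0.10 for SPA1, and against glucose -0.014 to 0.049 for PHYB, -0.069 to 0.043 for PHYC and -0.048 to 0.022 for COP1. Interactions ran from -0.071 to 0.0015 for CRY2, -0.14 to 0.019 for PHYC and -0.12 to 0.0091 for SPA1.

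Same-numbered replicates did not deviate together (r from -0.155 to 0.113), so the numbers were not taken as pairs; with the replicate block 2032 genes were called with glucose. Depth sets a floor of 3 counts, far under the 228 counts of the least covered of the 9 genes.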
